A study of Mus musculus with 20 samples.

Results

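The HoxB cluster is the group of 10 homeobox genes that lie side by side on mouse chromosome 11, and its members here were the rows for *Hoxb1* to *Hoxb9* and *Hoxb13* among the 43280 gene symbols of the count tables, together with the accessible regions over these genes. The series holds 20 samples, 12 for RNA-seq and 8 for ATAC-seq, a method in which a transposase cuts accessible DNA. Mesenchyme at E13.5 (embryonic day) was sorted as GFP+ cells from the stomach and the intestine of embryos labelled C57BL/6, while the study's methods give mixed strain backgrounds for its mice, the floxed *Eed* and reporter alleles included. The controls, labelled WT, carried *Bapx1*-cre and the *Rosa26*mTmG reporter, in which Cre switches a cell and its descendants from membrane Tomato to membrane GFP. *Eed* KO embryos carried Eed fl/fl with the same Cre and reporter, so that control cells also express Cre and only cells with a history of *Bapx1* (*Nkx3-2*), a gene of the gut mesenchyme, entered either group. There were 2 RNA-seq libraries for each of the 4 embryonic groups and 1 peak list for each, called by the authors on 2 pooled ATAC-seq samples. Adult GFP+ stromal cells came from the small intestine, with the villi scraped off, of tamoxifen-inducible *Pdgfrb* Cre-ERT2 reporter mice without (control, also labelled WT) or with Eed fl/fl (*Eed* KO), with 2 libraries each. Which libraries share embryos was not stated, and the adult Cre marks every stromal cell type that expresses *Pdgfrb*.

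*Hox* genes encode transcription factors that give cells along the head-to-tail axis their positional identity. Genes near the 3′ end of a cluster (*Hoxb1* to *Hoxb5*) are used in anterior regions and genes near the 5′ end (*Hoxb9*, *Hoxb13*) in posterior regions, and the order on the chromosome follows the order along the axis. EED is a core subunit of Polycomb repressive complex 2 (PRC2), which places the repressive mark H3K27me3, and silent *Hox* genes are classical targets of this complex.

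The cluster spanned chromosome 11 from 96194316 to 96368256 in GRCm38 (mm10), a length of 173.9 kb with all 10 members on the plus strand. *Hoxb13* stood apart, with 74.0 kb between its end and the start of *Hoxb9*, and the stretch from *Hoxb9* to *Hoxb1* took 96.8 kb. The RefSeq promoter table for GRCm38.p6, with 250 bases before and 50 after each gene start, held 3 of the 10 members, and these are shown because they stand for different places in the cluster, with *Hoxb8* in the centre, *Hoxb4* in the anterior part and *Hoxb1* at the 3′ end. Capitals mark matches, on either strand and with no overlap between motifs, to a HOX-PBX motif (TGATNNAT, in 8.85% of 32851 promoters of the same length), a CDX motif (TTTATG, 11.9%), a HOX13 motif (TCGTAAA, 0.597%) and a retinoic acid receptor half-site (AGGTCA, 16.3%). All are in plus strand orientation.
Hoxb8, chr11:96281655-96281954: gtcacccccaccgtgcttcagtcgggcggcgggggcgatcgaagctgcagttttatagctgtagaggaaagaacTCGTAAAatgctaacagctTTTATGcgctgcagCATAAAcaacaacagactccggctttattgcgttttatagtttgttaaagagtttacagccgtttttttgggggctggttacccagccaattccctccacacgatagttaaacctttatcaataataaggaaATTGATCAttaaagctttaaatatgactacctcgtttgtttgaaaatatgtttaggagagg
Hoxb4, chr11:96318017-96318316: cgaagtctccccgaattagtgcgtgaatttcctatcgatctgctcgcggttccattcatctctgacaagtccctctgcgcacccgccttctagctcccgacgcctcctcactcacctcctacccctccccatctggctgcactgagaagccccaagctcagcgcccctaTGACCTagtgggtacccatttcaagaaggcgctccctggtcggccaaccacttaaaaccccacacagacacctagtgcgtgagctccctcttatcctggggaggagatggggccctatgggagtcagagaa
Hoxb1, chr11:96365508-96365807: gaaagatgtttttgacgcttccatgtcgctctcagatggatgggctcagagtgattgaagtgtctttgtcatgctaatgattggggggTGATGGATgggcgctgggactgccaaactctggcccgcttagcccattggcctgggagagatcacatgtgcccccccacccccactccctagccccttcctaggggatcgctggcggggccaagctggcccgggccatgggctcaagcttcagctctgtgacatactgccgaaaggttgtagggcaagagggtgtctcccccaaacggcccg

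The *Hoxb8* promoter held 1 HOX-PBX, 2 CDX and 1 HOX13 match and had a GC content of 42.3%, below the median of 52.7% over all promoters. *Hoxb4* had 1 half-site match at 58.0% GC, and *Hoxb1* had 1 HOX-PBX match at 59.3% GC. Such matches describe letters and do not show binding. Between *Hoxb13* and *Hoxb9* lies the gene of miR-196a, a microRNA known to cleave *Hoxb8* RNA, and next to *Hoxb4* lies that of miR-10a. Their mature sequences differ in the seed, bases 2 to 8, given in capitals from RefSeq for GRCm38.p6.
miR-196a-5p, chr11:96265187-96265208: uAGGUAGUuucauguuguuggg
miR-10a-5p, chr11:96317186-96317208: uACCCUGUagauccgaauuugug

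Counts on genes ran from 30236159 to 39606157 in the 8 embryonic libraries and from 11404712 to 15903642 in the 4 adult libraries. A count of 0 allows a level of up to 0.0757 to 0.0992 CPM (counts scaled to the library total) in the embryonic and 0.189 to 0.263 CPM in the adult libraries before TMM scaling, which covers counting error only. All other CPM values are after TMM scaling. *Eed* itself stood at 38.1 and 40.1 CPM in control intestine libraries, 10.7 and 8.58 CPM after *Eed* loss, 40.0 and 41.5 CPM in control stomach libraries, and 11.5 and 7.40 CPM after *Eed* loss. It was lower in the *Eed* KO stomach by a log2 fold change of -2.11 (SE 0.21, adjusted p = 0.00175 from edgeR) and in the *Eed* KO intestine by -2.02 (SE 0.21, adjusted p = 0.00464 from edgeR). In the adult libraries *Eed* had 29.7 and 33.4 CPM in the control and 25.6 and 25.0 in the *Eed* KO, a change of -0.32 (SE 0.21, adjusted p = 0.317 from edgeR) that did not pass. The counts cover the whole gene, so they do not separate a deleted exon from the rest. Mesenchymal markers were abundant in every embryonic group, where the 10 genes summed to between 13600 and 25200 CPM. In bulk samples, fewer cells of a type and less RNA per cell cannot be told apart, and the p-values measure the spread between the 2 libraries of a group, which the study calls biological replicates.

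In the control intestine, 6 members from *Hoxb2* to *Hoxb8* were expressed at similar levels, while both posterior members were close to or at 0. Levels between genes are given as TPM, a share of the library's transcripts that takes gene length into account. *Hoxb4*, best known for the expansion of blood stem cells, led with a mean of 50.2 TPM, above *Hoxb2* at 30.7, *Hoxb8* at 29.6, *Hoxb7* at 27.8, *Hoxb6* at 26.8 and *Hoxb3* at 26.4 TPM, whose ranges overlapped from each to the next. *Hoxb5*, a regulator of enteric neural crest and lung development, followed at 21.7 TPM. *Hoxb9* and *Hoxb1* had 0.753 and 0.630 TPM, ranges that overlapped, and *Hoxb13* had no counts.

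The control stomach had more HoxB RNA in sum, from 289 to 294 TPM per library against 210 to 219 TPM in the control intestine, and its order put central members first. *Hoxb7* (53.6 TPM), *Hoxb8* (52.3), *Hoxb4* (46.4) and *Hoxb6* (44.6) had ranges that overlapped from each to the next. *Hoxb3*, *Hoxb2* and *Hoxb5* lay below them at 32.1, 29.1 and 27.2 TPM. *Hoxb9* had 4.56 and *Hoxb1* 1.48 TPM, and *Hoxb13* had no counts here either. *Hoxb6*, *Hoxb7* and *Hoxb8* together made up 50.4% to 52.9% of the summed HoxB TPM in the stomach and 38.4% to 40.0% in the intestine.

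**Figure D1:**
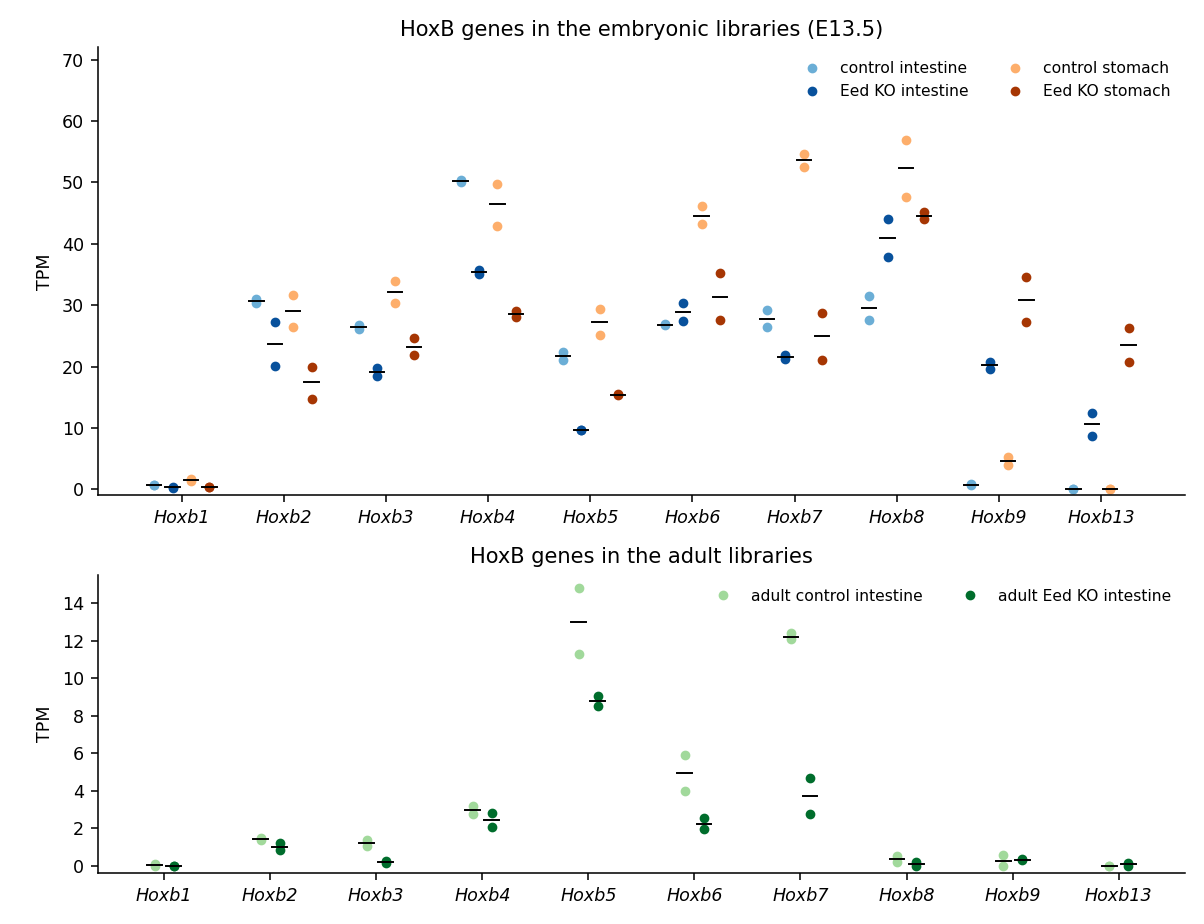
Level of each HoxB gene in TPM (linear axis) in every library, with embryonic libraries above and adult libraries below, 1 point per library and a black bar at the mean of each group of 2. *Hoxb13* lies at 0 in all control libraries and *Hoxb9* below 6 TPM in all embryonic control libraries, while both rise to between 10.6 and 30.9 TPM on average in the embryonic *Eed* KO groups but not in the adult ones.

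The comparison of the control organs asks how the cluster differs along the normal gut. *Hoxb9*, a gene of trunk and thoracic patterning, had 4.40 and 3.31 CPM in the control stomach and 0.758 and 0.538 CPM in the control intestine, with no overlap. It was the only member called, 5.86-fold lower in the intestine (log2 fold change -2.55, SE 0.24, adjusted p = 0.00119 from edgeR). To be called, a gene needed an adjusted p below 0.05 together with an absolute log2 fold change over 1, which 3.39% of the 16218 tested genes reached as lower and 1.68% as higher in the intestine. The central members moved in the same direction by less than this size: *Hoxb8* by -0.80 (SE 0.12, adjusted p = 0.00936 from edgeR), *Hoxb7* by -0.93 (SE 0.17, adjusted p = 0.0185) and *Hoxb6* by -0.72 (SE 0.16, adjusted p = 0.0377). With *Hoxb9* these made 4 members lower at an adjusted p alone, which 4.43% of all genes reached. *Hoxb1* changed by -1.21 (SE 0.33, adjusted p = 0.0803 from edgeR), which did not pass, with 35 and 49 counts in the control stomach and 18 and 14 in the control intestine. *Hoxb2*, *Hoxb3*, *Hoxb4* and *Hoxb5* had changes between -0.31 and 0.14 and none passed. The median over the 10 members was -0.51, against 0.00 over all genes. Cell type markers also moved between the control organs. Lower in the intestine were 2 of 10 mesenchymal markers (sum 14800 to 18800 CPM, against 17100 to 21100 for the stomach), 1 of 6 epithelial markers (66.3 to 105 against 106 to 114), 1 of 5 mesothelial markers (324 to 504 against 537 to 572), 1 of 5 of pancreas and spleen (1.63 to 3.13 against 7.24 to 34.1) and 1 of 6 of neural progenitors, whose sums follow with the *Eed* KO markers. Higher in the intestine were 2 of 5 endothelial markers (14.9 to 19.9 against 14.9 to 15.3) and 1 of 6 of smooth muscle (2760 to 4060 against 2850 to 2970). Also higher there were 2 of 6 markers of the tail bud and hindgut, *Hoxd13* and *Hoxa13*, with sums of 11.9 to 22.0 against 0.348 to 0.382 CPM. The part of these cells in the HoxB differences was not tested.

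Loss of *Eed* brought *Hoxb13* from no counts to a clear signal in both organs. *Hoxb13*, the most 5′ member and known from the tail and the prostate, had 0 and 0 counts in the control stomach and 542 and 645 in the *Eed* KO stomach, a level of 14.5 and 17.7 CPM. The intestinal counts were 0 and 0 for the control and 246 and 310 for the *Eed* KO, a level of 6.49 and 8.84 CPM. Against 3 counts over the 2 control libraries, the level was at least 396-fold higher in the *Eed* KO stomach and at least 166-fold higher in the *Eed* KO intestine. Both differences were called (adjusted p = 0.000568 and 0.0022 from edgeR), and *Hoxb13* passed the low-count filter only through the *Eed* KO groups. It is therefore no independent support for a change in the members that passed.

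*Hoxb9* rose in both organs as well. In the stomach it went from 4.40 and 3.31 CPM to 22.3 and 27.2 CPM, a 6.42-fold rise (log2 fold change 2.68, SE 0.20, adjusted p = 0.000594 from edgeR). The rise in the intestine was from 0.758 and 0.538 CPM to 17.0 and 17.2 CPM, which is 26.0-fold (log2 fold change 4.70, SE 0.24, adjusted p = 0.00047 from edgeR). No control library overlapped an *Eed* KO library in either organ. Its effect was larger in the intestine by 2.02 on the log2 scale (SE 0.31, adjusted p = 0.0734 from edgeR in the test of the difference, called under 0.2), a call that 0.191% of all genes reached in this direction and 0.271% in the other. The call of this difference was lost without control intestine 1 (adjusted p = 0.223), control intestine 2 (0.359) or control stomach 1 (0.208), from edgeR. *Hoxb13* cannot be compared in the same way, because its level is 0 in both controls.

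The other members fell or did not pass. In the *Eed* KO stomach, *Hoxb7* went from 27.8 and 26.7 CPM to 14.1 and 9.95 CPM (log2 fold change -1.18, SE 0.17, adjusted p = 0.00799 from edgeR). *Hoxb1*, the most 3′ member and a gene of hindbrain segments, went from 1.01 and 1.25 CPM to 0.295 and 0.219 CPM, 4.36-fold lower (log2 fold change -2.12, SE 0.35, adjusted p = 0.0133 from edgeR). Its counts were low, 35 and 49 against 11 and 8. *Hoxb5* (-0.90, SE 0.12, adjusted p = 0.00604 from edgeR), *Hoxb4* (-0.78, SE 0.11, adjusted p = 0.00668) and *Hoxb3* (-0.54, SE 0.11, adjusted p = 0.0296) fell by less than a log2 of 1. *Hoxb2*, *Hoxb6* and *Hoxb8* had changes of -0.82, -0.58 and -0.31 that did not pass. In all, 2 members were called higher and 2 lower in the *Eed* KO stomach, where 4.84% of all genes were higher and 0.808% lower, and 5 were lower at an adjusted p alone, which 1.95% of all genes reached. The median over the members was -0.68, against 0.00 over all genes. The *Hoxb7* call was lost without control stomach 1, control stomach 2 or *Eed* KO stomach 2. The *Hoxb1* call was lost when any of the 4 stomach libraries was left out. Without control stomach 1, *Hoxb5* was called lower in their place, at a log2 fold change of -1.01.

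*Hoxb5* had the largest fall in the *Eed* KO intestine, going from 19.9 and 20.5 CPM to 9.07 and 8.58 CPM. It was 2.29-fold lower (log2 fold change -1.19, SE 0.12, adjusted p = 0.00469 from edgeR) and was the only member called lower, beside 2 called higher, where 0.228% of all genes were lower and 2.38% higher. *Hoxb4* fell from 43.8 and 42.2 CPM to 30.4 and 29.4 CPM (-0.52, SE 0.11, adjusted p = 0.0494 from edgeR), which made 2 members lower at an adjusted p alone, against 0.407% of all genes. *Hoxb8* had 24.7 and 27.3 CPM in the control and 33.7 and 37.3 CPM in the *Eed* KO intestine, higher without overlap (0.45, SE 0.12, adjusted p = 0.122 from edgeR), while in the stomach its value was -0.31. The difference of these 2 effects, 0.76, did not pass (adjusted p = 0.305 from edgeR). *Hoxb1*, *Hoxb2*, *Hoxb3*, *Hoxb6* and *Hoxb7* changed by between -1.06 and 0.09, and none passed. Across the members the median was -0.39, against 0.01 over all genes.

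**Figure D2:**
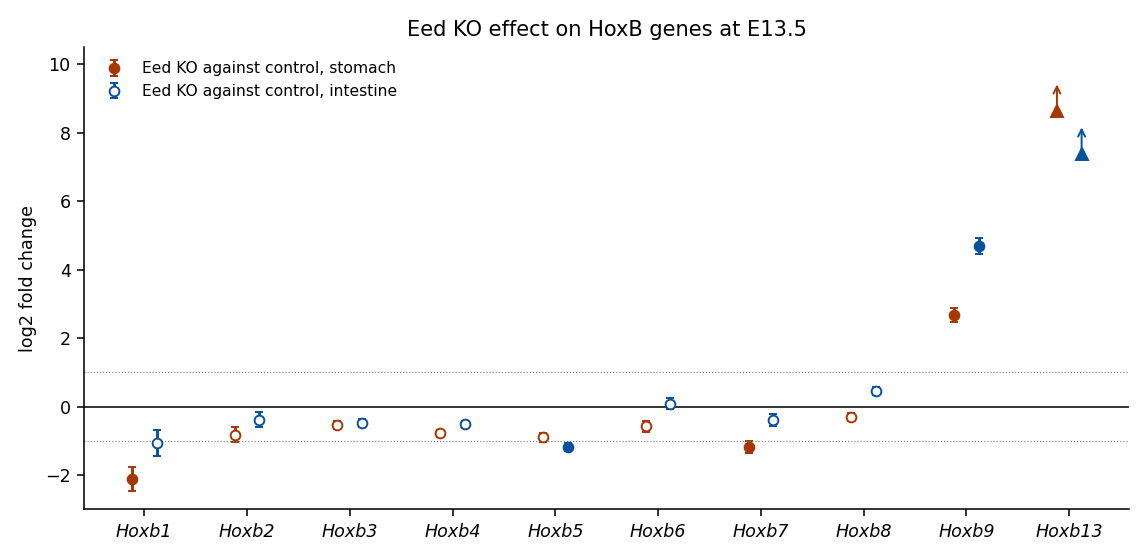
Log2 fold change of each HoxB gene in *Eed* KO against control at E13.5, by organ, with bars for the standard error of the edgeR fit, filled points for genes called and dotted lines at a log2 fold change of 1 in either direction. Triangles with arrows give lower bounds for *Hoxb13* against a floor of 3 counts. The 2 posterior genes lie above the upper line in both organs, and *Hoxb7* and *Hoxb1* in the stomach and *Hoxb5* in the intestine are the filled points below the lower line.

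The changes above are relative to the median gene of each comparison. Spike-in counts were 37590 and 36020 in the control stomach libraries and 12108 and 4871 in the *Eed* KO stomach libraries. In the intestine they were 26227 and 26837 in the control and 14932 and 5501 in the *Eed* KO. Libraries of a group thus differed more in the *Eed* KO groups than in the controls. When libraries were scaled by their spike-in RNA, the median gene of the *Eed* KO stomach stood 2.39 higher on the log2 scale than in the control and that of the *Eed* KO intestine 1.84 higher, and every member then had a positive value in both organs. With this shift taken off, all 54 values of members over the 6 comparisons kept their direction. The shift was computed from the same 2 sets of values, so this was largely fixed in advance and is no separate check. A DESeq2 fit with 1 factor of unwanted variation from the spike-ins kept both posterior calls and called no member lower in the stomach, with *Hoxb7* at -0.75. That fit gave 346 genes higher and 341 lower in the *Eed* KO stomach, where the main fit gave 785 and 131, and 302 higher and 174 lower in the *Eed* KO intestine, where the main fit gave 386 and 37. Spike-in totals gave 15419 and 19 in the stomach and 13664 and 24 in the intestine.

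With *Eed* lost, no HoxB difference between the organs passed the threshold. No member was called between the *Eed* KO intestine and the *Eed* KO stomach with edgeR, where 1.46% of all genes were higher and 2.94% lower in the intestine. *Hoxb13* was nearest to a call, with 6.49 and 8.84 CPM in the intestine and 14.5 and 17.7 CPM in the stomach (-1.07, SE 0.22, adjusted p = 0.0563 from edgeR). This value was called by DESeq2 with or without the spike-in factor, without the low-count filter, without TMM factors and with a replicate block (adjusted p from 0.000351 to 0.0346). *Hoxb5* was lower in the intestine by less than a log2 of 1 (-0.60, SE 0.12, adjusted p = 0.0315 from edgeR). *Hoxb9* had a change of -0.53 (SE 0.18, adjusted p = 0.154 from edgeR). Between these groups, 4 of 6 smooth muscle markers were higher in the intestine (sum 3240 to 5520 CPM, against 1820 to 2060), and 3 of 6 markers of neural progenitors and 1 of 5 of mesothelium (340 to 341, against 342 to 457) were lower, and their part in these values was not tested. Both comparisons of an organ with its own control share libraries with the organ comparisons, so the values of a gene across these are not independent.

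The make-up of the HoxB transcripts shifted toward the 5′ end in both organs. *Hoxb9* and *Hoxb13* together made up 0.291% to 0.414% of the summed HoxB TPM in the control intestine and 14.6% ± 1.56 (SD, n = 2) in the *Eed* KO intestine. For the stomach the share was 1.33% to 1.80% in the control and 19.4% to 26.0% in the *Eed* KO. The sum itself was 209 to 211 TPM in the *Eed* KO intestine, close to the control range, and 234 to 247 TPM in the *Eed* KO stomach, below its control range. *Hoxb1* to *Hoxb5* fell from 59.7% to 61.2% of the sum to 40.4% to 43.5% in the intestine, and from 45.7% to 47.8% to 34.3% to 36.3% in the stomach. These shares are descriptions without a test. *Hoxb8* had the highest mean in both *Eed* KO groups, with 40.9 TPM in the intestine and 44.6 TPM in the stomach, and *Hoxb9* reached 20.2 and 30.9 TPM.

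**Figure D3:**
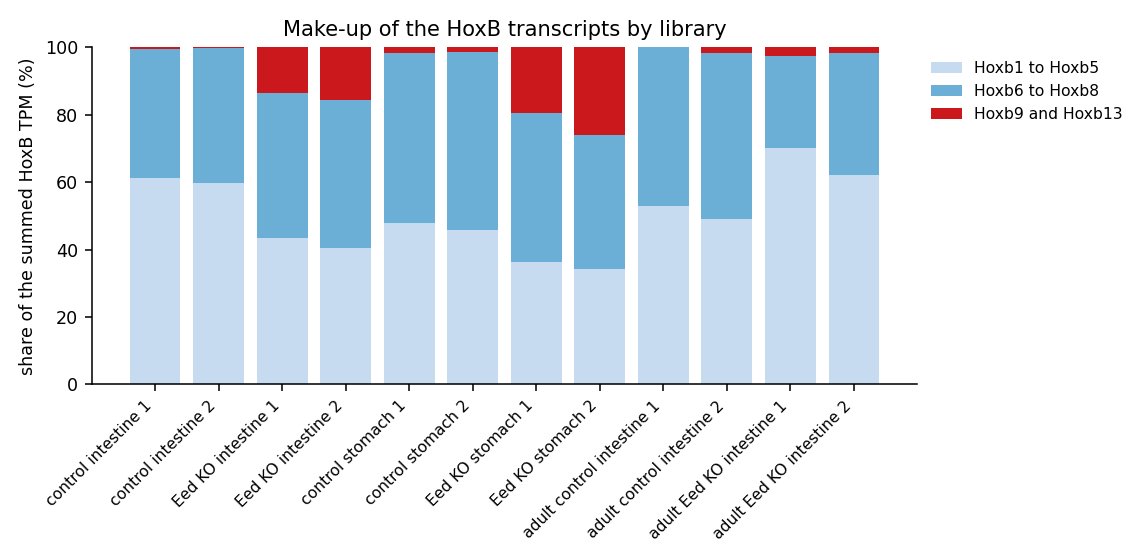
Share of the summed HoxB TPM (%, stacked to 100) taken by *Hoxb1* to *Hoxb5*, *Hoxb6* to *Hoxb8*, and *Hoxb9* with *Hoxb13* in each of the 12 libraries. The posterior share is below 3% in all control and adult libraries and 14.6% (intestine) and 22.7% (stomach) on average in the embryonic *Eed* KO libraries.

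Marker genes of other cell types moved with the *Eed* KO groups. Of 6 markers of spinal cord and neural progenitors, 3 (*Sox2*, *Pax6* and *Nkx6-1*) were called higher in both organs, and the list summed to 0.225 to 0.538 CPM in the control intestine, 4.91 to 7.87 in the *Eed* KO intestine, 3.80 to 4.43 in the control stomach and 36.3 to 42.9 in the *Eed* KO stomach. *Olig2* was at 0 in every library. Of 6 markers of the tail bud and hindgut, 2 were called higher in the *Eed* KO stomach, and both (*Hoxd13* and *Hoxa13*) are *Hox* genes themselves. That list summed to 0.348 to 0.382 CPM in the control stomach and 46.4 to 62.7 in the *Eed* KO stomach, to 11.9 to 22.0 in the control intestine and 37.7 to 38.2 in the *Eed* KO intestine, and *Cdx4* was at 0 throughout. Endothelial markers summed to 14.9 to 19.9 CPM in the control intestine, 46.9 to 48.1 in the *Eed* KO intestine, 14.9 to 15.3 in the control stomach and 24.6 to 44.9 in the *Eed* KO stomach, with 2 of 5 called higher for the intestine and 3 for the stomach. The part of these cells or genes in the HoxB values was not tested.

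Several noncoding transcripts lie inside the cluster, and 3 of the 4 tested between *Hoxb13* and *Hoxb9* were called higher in the *Eed* KO stomach, 2 of them also in the intestine. Of 9 other symbols in the cluster, 6 were tested in the embryonic fit. Both *Gm27605* and *Mir196a-1* passed the low-count filter only through the *Eed* KO groups. Their calls are therefore no independent support for a rise across the interval. *Gm27605*, on the minus strand from 96200176 to 96200311 beyond *Hoxb13*, had no counts in control stomach libraries but 40 and 38 without *Eed*, at least 26.0-fold higher (adjusted p = 0.00526 from edgeR). Its intestinal counts were 0 and 1 with *Eed* and 15 and 22 without, a ratio of 33.1 (95% counting interval 5.59 to 1340, adjusted p = 0.0361 from edgeR). That intestinal call was lost when any of the 4 libraries was left out and with the RUVg factor, DESeq2 with 1 factor from the spike-ins (adjusted p = 0.133).

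*Gm53* spans 96251105 to 96264868 on the plus strand, directly before the miR-196a gene. With 38 and 28 counts in control intestine libraries against 1 and 0 in those of the stomach, it was higher in the intestine (ratio 74.5, 95% counting interval 12.9 to 2990, adjusted p = 0.00421 from edgeR), the opposite direction to its neighbour *Hoxb9*. Without *Eed* the stomach libraries had 182 and 296 counts, a ratio of 478 (interval 85.4 to 18900, adjusted p = 0.000594 from edgeR). The intestinal libraries then had 215 and 142 counts, a rise of 2.27 on the log2 scale (SE 0.36, adjusted p = 0.0214 from edgeR). The effect was smaller in the intestine by a log2 of -6.30 (SE 0.85, adjusted p = 0.0573 from edgeR for the difference), also opposite to *Hoxb9*, though the size of a fitted value with almost no counts in a group depends on the prior count. The intestinal call was lost without control intestine 1, control intestine 2 or *Eed* KO intestine 1, and the call of the difference without control intestine 1 (adjusted p = 0.215) or control stomach 2 (0.231), from edgeR.

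The hairpin interval of *Mir196a-1*, from 96265164 to 96265265, held 0 and 0 counts in the control stomach and 19 and 18 in the *Eed* KO stomach, at least 12.3-fold higher (adjusted p = 0.00559 from edgeR). For the intestine the counts were 2 and 2 against 15 and 11, which did not pass (log2 fold change 2.47, SE 0.54, adjusted p = 0.071 from edgeR). Poly(A) libraries do not measure the mature miR-196a shown above, and these reads cannot be separated from longer transcripts over the same bases. The fourth tested transcript of the interval, *Gm11539* from 96248633 to 96249189, had 0.143 to 0.382 CPM over the embryonic libraries and did not pass in the stomach (-0.57, adjusted p = 0.557 from edgeR) or the intestine (-0.17, adjusted p = 0.954). *Mir10a* had at most 4 counts in a library.

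**Figure D4:**
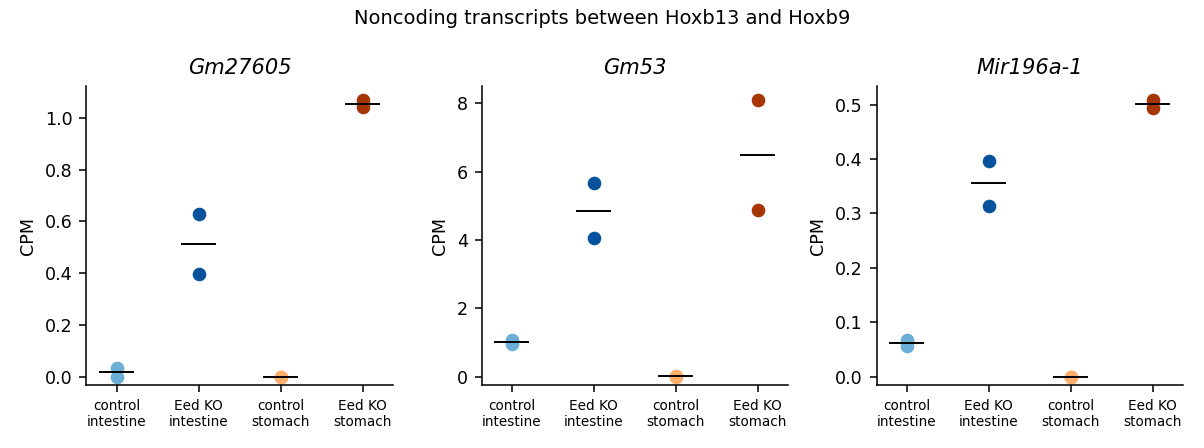
CPM of *Gm27605*, *Gm53* and the *Mir196a-1* hairpin interval in each of the 8 embryonic libraries, 1 point per library and 1 panel per transcript, on linear axes of different range. All *Eed* KO libraries lie above the control libraries of their organ, and *Gm53* is present in the control intestine at 1.07 and 0.942 CPM but at most 0.029 CPM in the control stomach.

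Of the antisense transcripts in the anterior part, 1 fell in the *Eed* KO stomach. *Hoxb5os*, from 96291024 to 96306910 on the minus strand across *Hoxb6* and *Hoxb5*, had 7.13 and 6.80 CPM in the control stomach and 3.49 and 2.06 CPM in the *Eed* KO stomach (log2 fold change -1.33, SE 0.28, adjusted p = 0.0313 from edgeR). The call was lost without control stomach 1, control stomach 2 or *Eed* KO stomach 2 and with the RUVg factor (-0.46, adjusted p = 0.672 from DESeq2), and with spike-in totals the value was 0.90. The value in the intestine was -0.47 (adjusted p = 0.591 from edgeR). *Hoxb3os*, across *Hoxb3* and *Hoxb2*, had 2.06 and 1.10 CPM in the control and 0.375 and 0.466 CPM in the *Eed* KO stomach, which did not pass (-1.89, SE 0.47, adjusted p = 0.0543 from edgeR). It was called lower by DESeq2 (adjusted p = 0.0204) and by edgeR without the low-count filter (0.00697) or with a replicate block (0.0302), but not with the RUVg factor (-0.93), and with spike-in totals it was 0.53. Embryonic libraries were stranded, whereas the adult libraries were not. Whether the embryonic counts keep sense and antisense reads apart was not checked. Within 250 kb of the cluster, 6 genes were tested in the embryonic fit and none was called in any comparison.

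The 4 peak lists show where DNA at the cluster was accessible. They came from pooled samples, so no spread between replicates is known, and the values are given without a test. The number of peaks over the cluster was 29 in the control intestine, 31 in the *Eed* KO intestine, 28 in the control stomach and 29 in the *Eed* KO stomach. They covered 22.7%, 24.4%, 22.4% and 24.6% of the cluster in that order. In each list 9 of the 10 gene starts had a peak within 1000 bp, where the share over all tested genes was 87.8% in the control intestine, 88.9% in the *Eed* KO intestine, 88.3% in the control stomach and 88.9% in the *Eed* KO stomach. The exception was *Hoxb3*, whose nearest peak lay 1316 to 2672 bp away. Only the outermost annotated start of a gene was used, and all 4 lists had peaks within *Hoxb3*. *Hoxb8* was reached by the wide peak of *Hoxb7*, 478 to 516 bp from its start.

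The starts of both posterior genes lay in a peak in the controls too. At *Hoxb13*, which had no RNA counts there, the peak had a fold enrichment over the MACS2 background of 3.72 in the control intestine and 4.83 in the control stomach, and of 4.63 and 4.98 in the *Eed* KO lists of the same organs. Its −log10 q was 9.71 and 15.2 in the controls and 20.2 and 35.5 in the *Eed* KO lists. *Hoxb9* had 3.29 and 3.35 in the control and *Eed* KO intestine and 3.31 and 3.45 in the stomach, with −log10 q of 5.81 and 11.9, and 6.83 and 18.3. The study tested ATAC-seq read counts with DESeq2. It names *Hoxb9* among the genes whose accessibility and expression both changed in the *Eed* KO intestine. The peak lists hold no read counts, so that test could not be repeated here. In these lists the enrichment at both genes was slightly higher without *Eed*. The covered share of the window of 1000 bp on either side of the *Hoxb13* start was lower, however, from 86.8% to 56.6% in the intestine and from 81.1% to 56.7% in the stomach, and 1058 bp from 96194712 to 96195769 were covered in both control lists only. *Hoxb6* also had a higher enrichment without *Eed*, with 2.23 and 2.70 for the intestine and 2.76 and 2.87 for the stomach, while *Hoxb2* went from 3.07 to 3.18 and from 3.52 to 3.21. At *Hoxb4* and *Hoxb5* it was slightly lower in both organs, from 3.74 to 3.49 and from 2.99 to 2.78 in the intestine, and from 3.58 to 3.30 and from 3.15 to 2.79 in the stomach. The intestinal values at *Hoxb1* were 3.60 and 3.46, and those of the stomach 3.82 and 4.66. A −log10 q also rises with the depth of a pooled list, which is unknown here.

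Of the bases of the cluster, 28.8 kb were in a peak in all 4 lists, 120.7 kb in none, 2.9 kb in both *Eed* KO lists only, in 16 stretches, and 1.6 kb in both control lists only. Coverage of the gap between *Hoxb13* and *Hoxb9* was 11.0% and 10.9% in the control intestine and stomach and 15.6% and 13.8% in the *Eed* KO lists. The longest stretch in both *Eed* KO lists only was 1120 bp from 96324807 to 96325926, within *Hoxb3*.

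**Figure D5:**
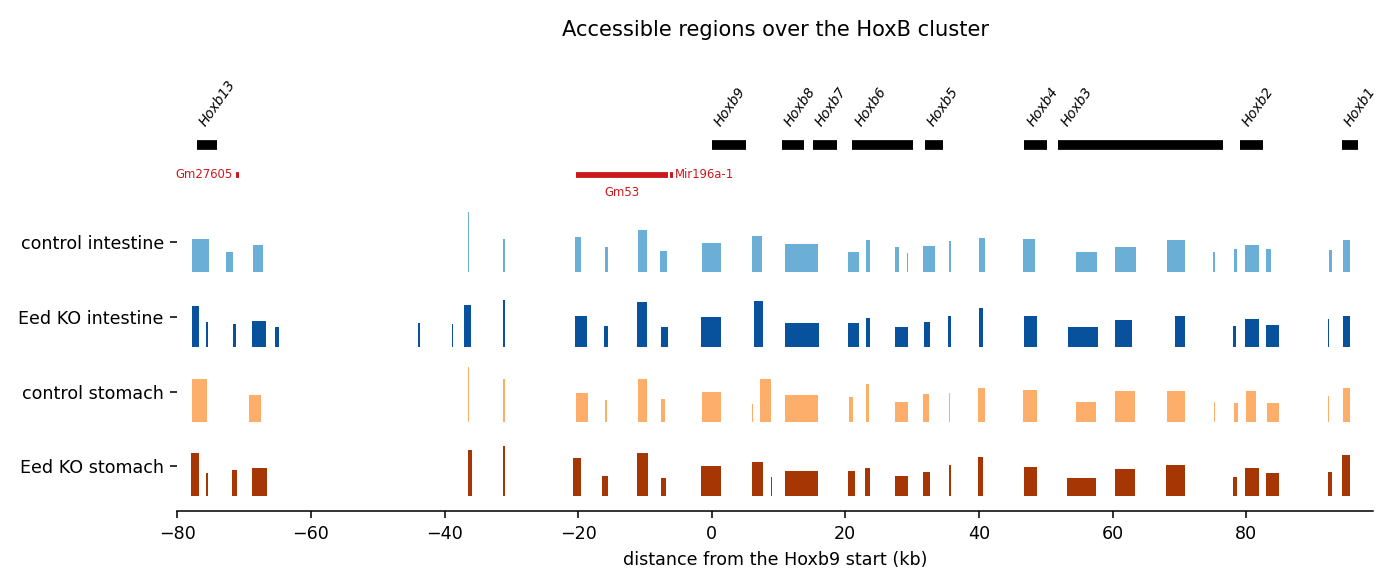
Peaks over the HoxB cluster in the 4 lists, by distance from the *Hoxb9* start (kb), with bar height in proportion to fold enrichment, member genes in black and *Gm27605*, *Gm53* and *Mir196a-1* in red. In every row the covered share is 22.4% to 24.6% of the cluster.

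Across the 8 embryonic libraries, members fell into sets with like patterns, given as Pearson r of log2 CPM without a test, since the libraries share genotypes and organs. *Hoxb9* and *Hoxb13* had an r of 0.92, and *Hoxb13* and *Hoxb4* an r of -0.95. *Hoxb1* went with *Hoxb7* (0.97), and *Hoxb3* with *Hoxb5* (0.97), although neither pair are neighbours on the chromosome. The genes outside the cluster most like *Hoxb13* were *Cdkn2a*, which encodes cell cycle inhibitors and is a classical Polycomb target, *Vax2* and *Foxd1* (r from 0.998 to 0.999). For *Hoxb9* they were *Prrx2*, a mesenchymal homeobox gene, *Sult4a1* and *Nova2* (0.986 to 0.989). For *Hoxb8* the nearest was *Hoxa7*, a central *Hox* gene of another cluster (0.977), before *Snx31* and *Tapbpl*. *Hoxb7* was nearest to *Gabrb2* and *Hoxb5os* (both 0.986) and to *Gm11541* (0.977), and *Hoxb1* to *Gm11541* (0.989), *Sdc1* (0.984) and *Gabrb2* (0.980). *Hoxb6* was nearest to *2610316D01Rik*, *Tes* and *Smco4*, *Hoxb5* to *Uba6*, *Pgap2* and *Amd-ps4*, *Hoxb4* to *Pdia6*, *Hars* and *Anp32b*, *Hoxb3* to *Ly96*, *Uba6* and *Lamp1*, and *Hoxb2* to *Txn1* and *U2af1*.

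The other 3 *Hox* clusters give the setting for these values. The shares of all genes called in each comparison are those given above for HoxB. Between the control organs, HoxB had 0 members higher and 1 lower in the intestine with edgeR, while 4 of 11 HoxA genes were higher and 2 lower, 5 of 9 HoxC genes were higher, and 8 of 9 HoxD genes were higher. *Hoxa9*, of the same paralog group as *Hoxb9*, was higher in the control intestine by 2.44 (SE 0.27, adjusted p = 0.00194 from edgeR), the opposite direction to *Hoxb9*. In the *Eed* KO stomach, 4 HoxA genes were higher and 3 lower, 7 HoxC genes higher and 1 lower, and 6 HoxD genes higher. Among these HoxA genes, *Hoxa4* fell by 1.66 (SE 0.14, adjusted p = 0.000926 from edgeR), while *Hoxa9* rose by 3.49 (SE 0.27, adjusted p = 0.000673 from edgeR). In the *Eed* KO intestine, 2 HoxA genes were lower, *Hoxa4* (-1.85, SE 0.14, adjusted p = 0.00135 from edgeR) and *Hoxa5* (-1.13, SE 0.14, adjusted p = 0.0092), 3 HoxC genes were higher and no HoxD gene was called. Some of the HoxC genes called higher without *Eed*, among them *Hoxc13* in both organs, had no counts in either control. They passed the low-count filter only through the *Eed* KO groups, so their calls are no independent support for a rise. For the difference of the *Eed* KO effect between organs, 1 HoxA gene was higher in the intestine, and 4 HoxA, 5 HoxC and 5 HoxD genes were lower, whereas in HoxB only *Hoxb9* was called and it was higher.

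Genes that act with or on HoxB genes changed little at E13.5, with some exceptions. None of 9 HOX cofactors of the Pbx, Meis and Pknox families, which bind DNA with HOX proteins, was called in any embryonic comparison. Of 15 known inputs to HoxB genes, such as Cdx factors and the retinoic acid pathway, 11 were tested. In the control intestine 4 of these were lower than in the control stomach, among them *Cyp26a1*, which degrades retinoic acid (-4.35, SE 0.26, adjusted p = 0.000256 from edgeR) and the retinoic acid receptors *Rarb* (-1.44, SE 0.11, adjusted p = 0.000592) and *Rarg* (-1.01, SE 0.12, adjusted p = 0.00272). *Cyp26a1* fell by 1.87 in the *Eed* KO stomach (SE 0.22, adjusted p = 0.00353 from edgeR), *Egr2*, a hindbrain regulator of *Hoxb2*, rose by 2.04 (SE 0.30, adjusted p = 0.00842), and *Fgf8*, with 2 counts in the control, was called higher. None of the 11 was called in the *Eed* KO intestine. Among 17 chromatin regulators of *Hox* genes, *Bmi1*, a subunit of Polycomb repressive complex 1, was the only gene called higher, by 1.20 (stomach, SE 0.12, adjusted p = 0.00164 from edgeR) and 1.34 (intestine, SE 0.12, adjusted p = 0.0026), and *Eed* the only gene called lower.

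In the adult stroma the cluster was expressed at a lower level and by fewer members. The summed HoxB level was 34.3 to 38.7 TPM in the adult control against 210 to 219 TPM in the control embryonic intestine, but kit, cells and counting run differed, so no test was made. *Hoxb5* (13.0 TPM) and *Hoxb7* (12.2 TPM) led and did not separate from each other. They were followed by *Hoxb6* at 4.94, *Hoxb4* at 2.98, *Hoxb2* at 1.42 and *Hoxb3* at 1.20 TPM. *Hoxb8*, among the highest members in the embryo, had 3 and 8 counts in the adult control and 0 and 4 in the adult *Eed* KO. Unstranded reads over *Hoxb5os* and *Hoxb3os* could add to the values of the genes they overlap.

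The rise of posterior members was not seen in the adult *Eed* KO, at this depth and at the short time sampled after tamoxifen. The fall of *Eed* RNA itself did not pass in this comparison, so the extent of its loss is not known from these counts. *Hoxb13* had 0 and 0 counts in the control and 2 and 0 in the *Eed* KO, and *Hoxb9* had 0 and 8 in the control and 4 and 7 in the *Eed* KO. Neither these nor *Hoxb8* and *Hoxb1* passed the low-count filter, which left 6 of 10 members. None of the 6 was called with edgeR, where 12.3% of the 15039 tested genes were higher and 7.23% lower, 2 members had an unadjusted p under 0.05, and DESeq2 called none either. *Hoxb7* had 7.16 and 7.55 CPM in the control and 2.30 and 4.40 CPM in the *Eed* KO (-1.12, SE 0.46, adjusted p = 0.124 from edgeR), and *Hoxb3* had 1.68 and 2.31 CPM against 0.300 and 0.617 CPM (-2.07, SE 0.71, adjusted p = 0.0783 from edgeR). *Hoxb5* had 15.8 and 12.4 CPM against 13.7 and 14.4 CPM (adjusted p = 0.994 from edgeR), and *Hoxb2*, *Hoxb4* and *Hoxb6* changed by between -0.55 and 0.30. The biological coefficient of variation was 29.1% in the adult fit and 15.8% in the embryonic fit, so smaller differences could be found in the embryo.

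The scaling bears on these adult values. TMM factors were 1.20 and 1.17 in the control and 0.874 and 0.815 in the *Eed* KO libraries, and without them the median of all genes shifted by -0.49 on the log2 scale. Scaled by library totals alone, *Hoxb7* (-1.62) and *Hoxb3* (-2.56) were called lower (adjusted p = 0.0298 from edgeR for each), with 1291 genes called higher and 2848 lower in place of 1856 and 1088. On this scale *Eed* was lower by a log2 fold change of -0.8 (adjusted p = 0.0261 from edgeR), short of the size for a call. The same scale underlies the TPM values, in which *Hoxb5* had 14.8 and 11.3 in the control and 9.04 and 8.54 in the *Eed* KO. Macrophage and leukocyte markers moved with the adult groups, with 4 of the 4 present called higher and a sum of 115 to 163 CPM in the control and 3020 to 3310 CPM in the *Eed* KO, against at most 3.57 CPM in any embryonic library. Mesenchymal markers summed to 22300 to 24700 CPM in the adult control and 12300 to 13000 CPM in the adult *Eed* KO, with 4 of 10 called lower. Smooth muscle markers summed to 1820 to 2250 CPM in the control and 3140 to 3700 in the *Eed* KO (3 of 6 higher), endothelial markers to 92.7 to 94.3 and 145 to 203 (1 of 5 higher), enteric neural crest markers to 2.56 to 3.01 and 18.8 to 20.5 (1 of 6 higher), and those of pancreas and spleen to 10.8 to 20.5 and 12.3 to 690, with none called. Their part in the HoxB values was not tested.

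In the other clusters, 2 of 5 tested HoxC genes were lower in the adult *Eed* KO, *Hoxc4* (-1.60, SE 0.20, adjusted p = 0.00215 from edgeR) and *Hoxc5* (-1.58, SE 0.29, adjusted p = 0.00915), as was the 1 tested HoxD gene, *Hoxd8* (-1.78, SE 0.47, adjusted p = 0.0349), and none of 7 HoxA genes was called. Of the cofactors, 1 of 8 was lower, *Pknox2* (-1.87, SE 0.23, adjusted p = 0.00182 from edgeR). Of 9 tested inputs, 3 were higher and 1 was lower. Of 16 chromatin regulators, *Kdm6b*, an H3K27 demethylase, was higher (2.23, SE 0.38, adjusted p = 0.00644 from edgeR) and *Men1* was lower (-1.27, SE 0.24, adjusted p = 0.0103).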

How the data were processed

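RNA was sequenced from 12 samples and accessible DNA from 8, grouped by the labels. The authors trimmed RNA-seq reads with Trimmomatic 0.32 and aligned them with STAR 2.5.1b to GRCm38/mm10 and the spike-in sequences (submitters' processing notes and the study's methods). Gene counts on GENCODE vM4 came from featureCounts and were deposited as raw whole numbers, without normalization. ATAC-seq reads were aligned with BWA 0.7.8, and the authors pooled the samples of a condition and called broad peaks with MACS2 2.1.2. The deposited lists give each peak a fold enrichment (ratio) over background and a −log10 q, and no read counts, so their depth is unknown.

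Counts were analysed in R 4.3.3 (edgeR 4.0.16, limma 3.58.1) by TMM scaling, filterByExpr and a quasi-likelihood F-test, and p-values were adjusted over all tested genes (Benjamini-Hochberg). The 8 embryonic libraries shared a fit with 4 group means and the 4 adult libraries a fit with 2. A standard error is the log2 fold change over the root of F. The limits for a call were 0.05 for the adjusted p (0.2 for the difference of the *Eed* KO effect) and an absolute log2 fold change of 1. TPM used gene lengths of the adult files. Bounds were computed against 3 counts over a group. No column of per-sample values was left out (0). Scripts were tested on simulated data.

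Named were the members, *Eed*, other transcripts inside the cluster that passed the filter or held at least 10 counts, genes within 250 kb if called, 3 genes per member with the highest r (log2 CPM with a prior of 0.5), and up to 4 members per list with the smallest adjusted p. *Hoxd13*, *Hoxa13* and other markers come from the marker lists. *Mir10a* was named after its values were seen. Some items that these rules name are not reported here. Members and lists were chosen with earlier results of these data known. Motifs were searched as exact letters. Alternatives were DESeq2 1.42.0, its size factors, no low-count filter, spike-in totals, DESeq2 with 1 RUVg factor (computed here from spike-in counts), a replicate block, other peak settings, each library left out, and, chosen after seeing the data, no TMM factors. Python 3.11.15, pandas 2.3.3, numpy 2.4.6, scipy 1.17.1 and matplotlib 3.10.9 were used for tables and figures.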

Additional observations from a re-analysis of the deposited data

Results flagged for a closer look

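The *Eed* KO effect on *Hoxb9* and on *Gm53* was called as different between the organs in a test of the difference itself, under the wider limit of 0.2, and in opposite directions. As given above, neither call held in every fit with a library left out. For *Hoxb9* the effect was larger in the intestine by 2.02 on the log2 scale (adjusted p = 0.0734 from edgeR), and for *Gm53* it was smaller in the intestine, by -6.3 (adjusted p = 0.0573 from edgeR). In both cases the organ with the lower control level had the larger rise, and the *Eed* KO levels of the organs did not differ past the threshold. These values come from the same group means as the difference, so they add nothing independent to its test.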

How the results depend on the processing

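With spike-in totals, 0 members were called lower between the control organs (*Hoxb3* at 0.03), 6 higher and 0 lower in the *Eed* KO stomach, 4 higher and 0 lower in the *Eed* KO intestine, 0 higher for the difference, and 1 lower in the adult. The log2 fold changes that turned were, in the stomach, *Hoxb8* 2.06, *Hoxb7* 1.11, *Hoxb6* 1.72, *Hoxb5* 1.47, *Hoxb4* 1.60, *Hoxb3* 1.79, *Hoxb2* 1.48 and *Hoxb1* 0.10, in the intestine, *Hoxb7* 1.44, *Hoxb5* 0.64, *Hoxb4* 1.32, *Hoxb3* 1.38, *Hoxb2* 1.36 and *Hoxb1* 0.61, for the difference, *Hoxb4* -0.28, *Hoxb3* -0.42 and *Hoxb2* -0.13, and in the adult, *Hoxb4* -0.13 and *Hoxb2* -0.33. This setting moves every gene by the shift given in the report. With the RUVg factor, 0 members were lower in the stomach, and *Hoxb2* turned in the intestine (0.18) and the adult (-0.05). Without TMM factors, 2 members were lower in the adult, where *Hoxb4* (-0.20) and *Hoxb2* (-0.39) turned. Between the *Eed* KO organs, 1 member, *Hoxb13*, was lower under DESeq2, no filter, the RUVg factor, no TMM factors, the replicate block and the replicate block within genotype. The cause of these changes was not tested.

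Same-numbered libraries had correlations of their deviations from 0.104 to 0.714 between embryonic groups and -0.0734 in the adult. The value of 0.714 was for the *Eed* KO intestine and the *Eed* KO stomach. Whether same-numbered libraries share embryos was not stated, and 2 pairs cannot show it. Between these *Eed* KO organs, *Hoxb13* was called lower with the replicate block (adjusted p = 0.0135 from edgeR) and with the block within genotype (0.00322). The replicate block changed no other call of a member. Over all genes, calls of the difference were 31 higher and 44 lower in the main fit, 83 and 104 with the replicate block, 171 and 179 within genotype, 98 and 107 with DESeq2, 117 and 120 without the filter, 132 and 107 with the RUVg factor, and 0 and 20 with spike-in totals. In the *Eed* KO intestine they were 386 and 37 in the main fit, 610 and 55 with DESeq2, 734 and 66 without the filter, and 575 and 56 with the block.

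With each library left out in turn, members called lower in the *Eed* KO stomach numbered 0 to 1 and those called higher for the difference 0 to 1. Values that turned ranged from -0.02 to 0.23 for *Hoxb2* between the control organs, from -0.02 to 0.20 for *Hoxb6* in the *Eed* KO intestine, between the *Eed* KO organs from -0.12 to 0.03 for *Hoxb8*, -0.36 to 0.14 for *Hoxb7*, -0.24 to 0.18 for *Hoxb6* and -0.36 to 0.08 for *Hoxb1*, from -0.05 to 0.18 for *Hoxb3* in the difference, and in the adult from -0.04 to 0.54 for *Hoxb4* and -0.27 to 0.38 for *Hoxb2*. None of these was called. The calls of *Hoxb9* (2.49 to 2.90 in the stomach, 4.49 to 4.97 in the intestine), *Hoxb13* and intestinal *Hoxb5* (-1.23 to -1.15) held throughout. Limited to a −log10 q of 5 or more, peaks covered 16.2% of the cluster in the *Eed* KO intestine, and with at least 50% of the window covered, 4 gene starts had a peak in each stomach list. Ranks by CPM, without division by length, moved for several members.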
